A study of Mus musculus with 2 samples.

Results

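Late-numbered and computationally predicted hairpins that were counted unevenly in 2 libraries of embryonic mouse heart are described here. They are 7 of the 1973 annotated miRNA genes counted: Mir6240, Mir6538, Mir5126 and Mir6236, whose numbers are 5000 or more, and Gm26117, Gm24245 and Gm23935, which carry only a predicted gene symbol. Each was taken by gene ID. The members were chosen by the ratio of their own-strand counts between the libraries, so that ratio is a description here and carries no test. All 7 passed the detection limit used for every gene, 1 CPM in both libraries, where CPM are counts scaled to a total of 1000000 over all miRNA genes of a library. MicroRNA sequencing had been done on total RNA, with a labelled size range under 30 nt, from hearts of healthy B6NCrl embryos at 11.5 days, males and females pooled. The 2 libraries are biological replicates of the only group; for replicate 1 the labels give 109 embryos, and for replicate 2 they give none. Since hearts were pooled, differences between embryos cannot be seen, and in tissue of several cell types fewer cells of a type and less RNA per cell cannot be told apart.

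A miRNA gene is transcribed as a longer precursor that folds into a hairpin. Drosha and Dicer cut the hairpin down to a short mature strand, which Argonaute proteins hold and whose seed pairs with target mRNAs. Hairpins with high numbers entered the catalogue late, mostly from deep sequencing, and predicted hairpins come from automated annotation. Such entries have been doubted as a class, since a short piece of another abundant RNA can be read as a mature strand. No role in the heart is given here for any of the 7.

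The mature sequences from RefSeq (GRCm38.p6) are shown because their length and composition bear on that doubt. Entries were matched for 4 of the 7 genes. Each runs 5′ to 3′ with the seed, bases 2 to 8, in capitals. The last line is a reference miRNA of another gene, shown because it has the same seed as miR-6240.
mmu-miR-6240: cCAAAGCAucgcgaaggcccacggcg
mmu-miR-6538: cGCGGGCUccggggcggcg
mmu-miR-5126: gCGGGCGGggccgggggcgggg
mmu-miR-6236: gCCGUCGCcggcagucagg
mmu-miR-330-3p: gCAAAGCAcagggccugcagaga

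The median length of the 1738 mature miRNAs in that table is 22 bases, and miR-5126 has this length. By contrast miR-6240, with 26 bases, is exceeded by 0.173% of them, while 1.21% of them are shorter than miR-6538 and miR-6236, with 19 bases each. G and C make up 100% of miR-5126, 94.7% of miR-6538, 78.9% of miR-6236 and 69.2% of miR-6240. The 4 seeds differ from one another. Of the other mature miRNAs only miR-330-3p shares one of them, and its gene Mir330, on chromosome 7, had 3998 counts in replicate 1 and 484 in replicate 2, or 216 and 240 CPM.

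2 hairpins are shown with the mature strand in capitals, since their genes had the largest ratios between libraries after Gm26117. In Mir6240 the mature strand takes bases 26 to 51 of 117, in Mir6538 bases 23 to 41 of 110. They lie at chr5:114851948-114852064 on the plus strand and at chr12:26414901-26415010 on the minus strand.
Mir6240 hairpin: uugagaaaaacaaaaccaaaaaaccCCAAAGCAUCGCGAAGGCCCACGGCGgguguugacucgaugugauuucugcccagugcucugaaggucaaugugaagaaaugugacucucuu
Mir6538 hairpin: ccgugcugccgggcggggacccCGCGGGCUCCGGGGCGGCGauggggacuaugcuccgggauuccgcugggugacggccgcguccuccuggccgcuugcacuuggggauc

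The values are reads counted on the gene's own strand. Replicate 1 was 9.15 times deeper, with 18467499 own-strand counts, against 2017294 in replicate 2. A count of 0 would allow up to 0.162 CPM in replicate 1 and 1.49 CPM in replicate 2 (3 counts of each total). Intervals are exact 95% Clopper-Pearson intervals. They and these limits cover counting error only, because PCR copies are not independent molecules. The heart muscle miRNAs Mir208a, Mir208b and Mir499, encoded in myosin heavy chain genes, stood at 10631 ± 523, 48339 ± 2647 and 1795 ± 186 CPM (SD, n = 2), so markers of the labelled tissue were present in both libraries.

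Gm26117 (ENSMUSG00000093340.1) was the most uneven gene of all those detected. It had 6377 counts in replicate 1 and 37 in replicate 2, which is 345 CPM (interval 337 to 354) against 18.3 CPM (12.9 to 25.3). Replicate 2 would have held 697 counts at the share seen in replicate 1. The log2 ratio of CPM + 1, replicate 1 over replicate 2, was 4.16, and the ratio of CPM was 18.8 (13.6 to 26.8). Its mean of 182 ± 231 CPM (SD, n = 2), rank 166 of 419 detected genes, therefore describes neither library.

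Mir6240 and Mir6538 came next, both high in replicate 1. Mir6240 (ENSMUSG00000098343.1) was read 3911 times in replicate 1 and 52 times in replicate 2, or 212 and 25.8 CPM, a ratio of 8.22 (6.25 to 11.0) and a log2 ratio of 2.99. Mir6538 (ENSMUSG00000098771.1) was read 3090 times in replicate 1 and 55 times in replicate 2, or 167 and 27.3 CPM, a ratio of 6.14 (4.70 to 8.17) and a log2 ratio of 2.57. Mir6240 held 1.27 counts for each Mir6538 count in replicate 1 (1.21 to 1.33) and 0.945 in replicate 2 (0.635 to 1.41). These intervals overlap, and that of replicate 2 is wide. Both genes were picked for their ratios between libraries, which set this proportion, so nothing is read from it.

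Mir5126 (ENSMUSG00000093254.1) was a weaker signal with the same direction. It had 574 counts in replicate 1 and 17 in replicate 2, or 31.1 CPM (28.6 to 33.7) and 8.43 CPM (4.91 to 13.5). The ratio was 3.69 (2.28 to 6.38) and the log2 ratio 1.77. Gm26117 held 11.1 counts per Mir5126 count in replicate 1 (10.2 to 12.1) against 2.18 in replicate 2 (1.20 to 4.12).

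Mir6236 (ENSMUSG00000098973.1) went the other way. It had 2797 counts in replicate 1 and 637 in replicate 2, or 151 CPM (146 to 157) and 316 CPM (292 to 341). The log2 ratio was -1.06, and the CPM ratio of replicate 1 over replicate 2 was 0.480 (0.440 to 0.524). An equal share would have given 306 counts in replicate 2. Mir6240, numbered in the same run of catalogue entries, held 1.40 counts per Mir6236 count in replicate 1 (1.33 to 1.47) but 0.0816 in replicate 2 (0.0603 to 0.108).

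Gm23935 (ENSMUSG00000076258.1) was the most abundant of the 7 and the least uneven. It had 6596 counts in replicate 1 and 461 in replicate 2, or 357 CPM (349 to 366) and 229 CPM (208 to 250). The ratio was 1.56 (1.42 to 1.72) and the log2 ratio 0.64, short of 2-fold. Its sequence copy Gm24245 (ENSMUSG00000087943.1) was read 236 times in replicate 1 and 11 times in replicate 2, or 12.8 and 5.45 CPM, a ratio of 2.34 with a wide interval of 1.29 to 4.76. The log2 ratio of Gm24245 was 1.09, the closest of the 7 to the 2-fold limit from above, and it rests on 11 counts. It was under 2-fold with a pseudocount of 5 CPM in place of 1, at 0.77, and with scaling by all mapped reads, at 0.89.

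**Figure D1:**
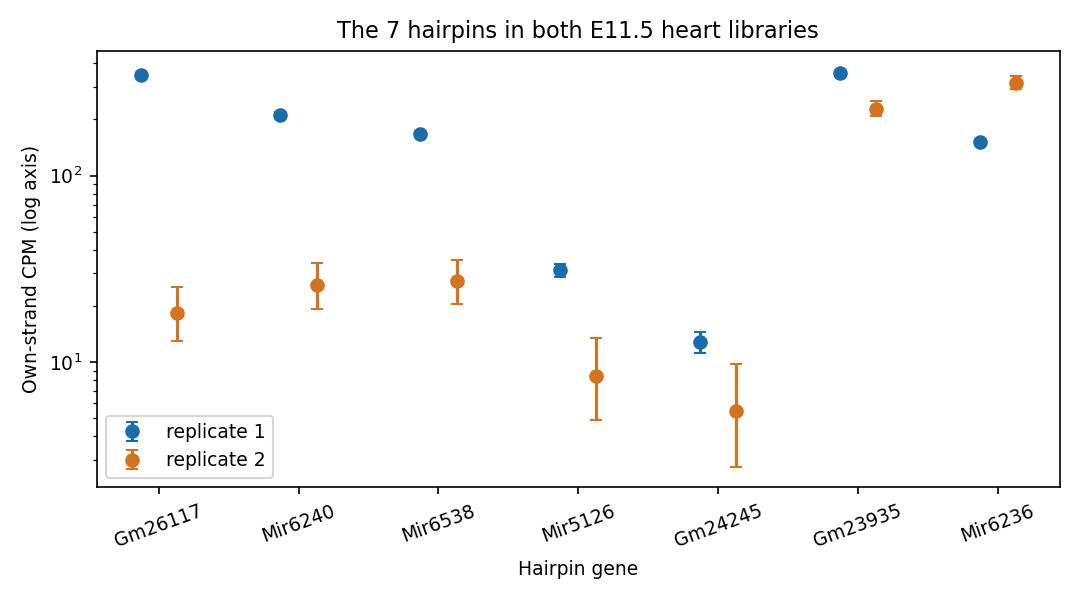
Own-strand CPM (log axis) of the 7 hairpin genes in replicate 1 (blue, left) and replicate 2 (orange, right), with exact 95% Clopper-Pearson intervals as bars. Gm26117 stood at 345 and 18.3 CPM in replicates 1 and 2, while Mir6236, at the right, was lower in replicate 1 at 151 against 316 CPM.

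At a limit of 2-fold on log2(CPM + 1), 6 of the 7 were past it, 5 higher in replicate 1 and 1, Mir6236, higher in replicate 2. Over all 419 detected genes 2.63% were past it in either direction, 1.91% higher in replicate 1 and 0.716% higher in replicate 2. Since the members were picked for this ratio, nothing is read from that difference. The median log2 ratio was 1.77 over the 7 and 0.01 over all detected genes. Just past the limit stood Gm24245, at 1.09, and just short of it the established Mir7b, at 0.98 on 72 counts in replicate 1 and 3 in replicate 2. On the other side Mir6236 stood at -1.06 just past the limit, and Mir3088 at -0.99 just short of it, on 23 and 7 counts. Together the 7 took 0.128% of miRNA counts in replicate 1 (0.126 to 0.129%) and 0.0630% in replicate 2 (0.0595 to 0.0665%). For scale, Mir335, the most abundant gene, stood at 111844 ± 5328 CPM, so the 7 are a small part of the pool. Other features of the libraries differed with these ratios: unmapped reads were 38.4% in replicate 1 and 27.5% in replicate 2, and depth differed as given above. Their part in the ratios was not tested.

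Markers of other cell types were also compared between the libraries. Of 19 markers listed for 7 cell types other than heart muscle, 15 were matched by symbol and 14 detected. The liver marker Mir122 was past 2-fold, with 7298 counts in replicate 1 and 323 in replicate 2, or 395 and 160 CPM, a log2 ratio of 1.30, rank 5 by size among all detected genes. All 6 epithelial markers, Mir200a, Mir200b, Mir200c, Mir429, Mir141 and Mir205, had a higher CPM in replicate 1, with log2 ratios from 0.44 to 0.94 and a sum of 1656 CPM in replicate 1 against 1057 CPM in replicate 2. Mir375, an endocrine and gut miRNA outside these lists, was past 2-fold in the same direction, at 112 and 48.6 CPM and a log2 ratio of 1.19. Mir133a-1, also outside these lists, was past 2-fold in the other direction at -1.30, on 30 counts in replicate 1 and 11 in replicate 2. The blood vessel and blood lists ran from -0.60 to 0.23. Endothelial Mir126a stood at -0.09 and the 2 smooth muscle markers at -0.17 and -0.07. The 2 red cell markers stood at 0.05 and 0.01, and the 2 matched leukocyte markers, Mir150 and Mir223, at -0.60 and 0.23. Mir150 had 235 counts in replicate 1 and 40 in replicate 2. Mir126b and Mir142 were also listed but not matched by symbol. The heart muscle markers summed to 58391 CPM in replicate 1 and 63138 CPM in replicate 2. Of the 3 neural markers listed, only Mir9-2 was matched by symbol, and it was at 0 in both libraries. Mir124a-1, Mir124a-2, Mir124a-3 and Mir9-3 are also among the counted genes, under symbols outside the list, and their values are not given here. A 0 at Mir9-2 therefore does not show that neural miRNAs were absent. Mir122, Mir375 and the 6 epithelial markers had a higher CPM in replicate 1, as did Mir144, Mir451a and Mir223. Of the 14 detected markers 1 was past 2-fold, against 2.63% of all detected genes, whose median log2 ratio was 0.01. All members but Mir6236 also had a higher CPM in replicate 1, but they were picked for their ratios. Nothing is therefore read from a shared direction, and the part of other cell types in the members' ratios was not tested.

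By mean of the libraries the order was Gm23935 (293 ± 91.0 CPM), Mir6236 (234 ± 116), Gm26117 (182 ± 231), Mir6240 (119 ± 132), Mir6538 (97.3 ± 99.0), Mir5126 (19.8 ± 16.0) and Gm24245 (9.12 ± 5.18), each with SD and n = 2. Among the first 5 no neighbours in this order differed by more than their SDs, and replicate 1 alone puts Gm26117 above Mir6236 while replicate 2 puts it lowest of the 5.

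**Figure D2:**
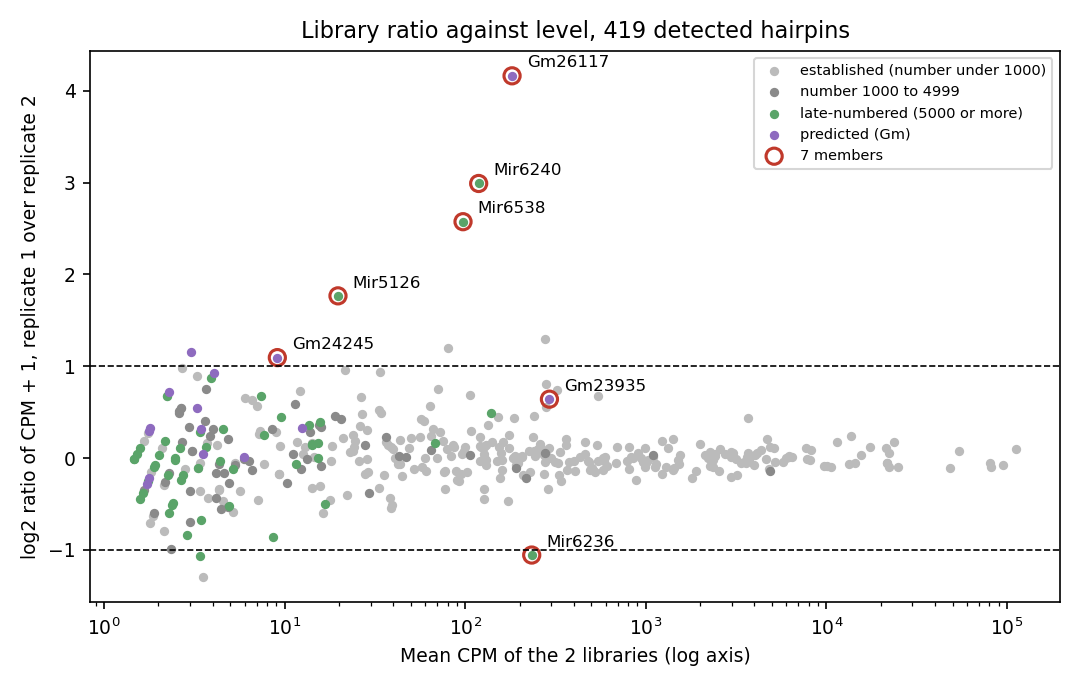
The log2 ratio of CPM + 1, replicate 1 over replicate 2, against the mean CPM (log axis) of the 419 detected hairpins, coloured by naming class, with the 7 members ringed and 2-fold marked by dashed lines. Gm26117, Mir6240, Mir6538 and Mir5126 lie above every other gene, between 1.77 and 4.16, while Gm23935 lies inside the lines at 0.64.

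The naming classes were compared to place the 7 among their like. Late-numbered hairpins (421 counted) had 50 detected, 3 past 2-fold higher in replicate 1 and 2 higher in replicate 2, with a median log2 ratio of -0.01. Predicted hairpins (843 counted) had 15 detected, 3 past 2-fold higher in replicate 1 and 0 higher in replicate 2, with a median of 0.33. These 15 include the 3 predicted members and 5 near or identical copies of 1 sequence, described below, with Gm23935 and Gm24245 in both groups. Nothing is read from that median. Established hairpins, numbered under 1000 or named let-7, had 301 of 474 detected, 2 higher in replicate 1 and 1 higher in replicate 2, with a median of 0.01. The late-numbered and predicted classes together had 65 detected, of which 8 were past the limit, or 12.3%, against 2.63% of all detected genes. Members are 6 of those 8, and since they were picked for this ratio nothing is read from the share. The other 2 were Gm24187, a near copy of Gm23935 with 84 counts in replicate 1 and 3 in replicate 2, and Mir7082, with 34 and 10. With the 7 members left out, these classes had 58 detected, of which these 2, or 3.45%, were past the limit. The median log2 ratio of the 58 was 0.02. The 65 had a median mean level of 3.45 CPM, against 80.5 CPM over all detected genes.

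By mean level, 5 of the 6 most abundant late-numbered or predicted hairpins are members, in the order Gm23935, Mir6236, Gm26117, Mir6240 and Mir6538. The exception is Mir5099, between Gm26117 and Mir6240, with 163 CPM in replicate 1, 116 CPM in replicate 2 and a log2 ratio of 0.49. Mir7689 followed at 72.3 and 64.4 CPM, Mir6546 at 13.7 and 19.8 CPM and Mir6944 at 17.9 and 13.4 CPM. These 4 non-members all stayed within 2-fold. The order by mean leans on replicate 1. In replicate 2 alone, Mir5099 and Mir7689 stood above Mir6538 (27.3 CPM), Mir6240 (25.8 CPM) and Gm26117 (18.3 CPM). Mir6546 also stood above Gm26117 in replicate 2.

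Neighbours by catalogue number were examined because they entered the catalogue together. Of the 33 counted genes from Mir5097 to Mir5136, 7 were detected. Besides Mir5126 and Mir5099 these were Mir5100, Mir5101, Mir5104, Mir5113 and Mir5128, with log2 ratios from -0.51 to 0.05. Mir5113 had 284 counts in replicate 1 and 31 in replicate 2, which is 15.4 CPM in each. Of the 7 counted from Mir6236 to Mir6244, the detected genes were the members Mir6236 and Mir6240 themselves. Of the 6 counted from Mir6537 to Mir6546, 4 were detected. Mir6539, Mir6540 and Mir6546 had log2 ratios of 0.12, 0.36 and -0.50, against 2.57 for Mir6538.

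Likeness to another gene was taken as the distance between 2 points, log2(CPM + 1) in each of the 2 libraries, among 412 detected non-members. Gm23935 had a close match in Mir205, an epithelial miRNA, with 332 CPM in replicate 1 against 226 CPM in replicate 2 (distance 0.10). Gm24245 lay 0.42 from Mir5618, Mir6236 lay 0.60 from Mir3071 and Mir5126 lay 0.71 from Mir219a-1. Mir6538, Mir6240 and Gm26117 all had Mir375 as the nearest, at distances of 0.99, 1.27 and 2.11. With 2 libraries such likeness covers level and ratio alone.

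Gm23935 and Gm24245 have the same annotated sequence of 57 bases, on different chromosomes. Gm23935 lies on chromosome 16 from 11144125 to 11144181 and Gm24245 on chromosome 4 from 139338304 to 139338360, both on the plus strand. Another identical copy, Gm24270, lies on chromosome 9. Gm24187 on chromosome 13 differs at 1 base and Gm23388 on chromosome 8 at 4. Gm25911 on chromosome 1 is 1 base shorter and was not compared base by base. It shares 4 of the 38 runs of 20 bases in Gm23935. With 111 counts in replicate 1 and 12 in replicate 2, Gm25911 stood at 6.01 and 5.95 CPM, a log2 ratio of 0.01. All 5 copies of 57 bases within 5 mismatches were detected, and all 5 had a higher CPM in replicate 1. Nothing is read from that direction, since Gm23935 and Gm24245 were picked for their ratios. The ratio intervals of Gm24270 and Gm23388, given below, include equal CPM.

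The identical copies were counted at very different levels. Gm23935 had 6596 counts in replicate 1 and 461 in replicate 2, Gm24245 had 236 and 11, and Gm24270 had 39 and 3. Gm23935 held 27.9 counts per Gm24245 count in replicate 1 (24.5 to 32.0) and 41.9 in replicate 2 (23.2 to 84.5), and these intervals overlap. Of the 5 copies Gm23935 alone took 91.4% of the counts in replicate 1 and 92.2% in replicate 2. Ratios between the libraries were 1.42 (0.451 to 7.18) for Gm24270, 3.06 (1.01 to 15.1) for Gm24187 and 1.28 (0.828 to 2.08) for Gm23388, and these intervals, with those of both members, overlap.

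This group stood alone among repeated hairpins. Counted genes that share their whole annotated sequence with another form 55 sets of 209 genes. The other 54 sets, 206 genes in all, had 0 own-strand counts in both libraries, and only Gm23935, Gm24245 and Gm24270 had any. The deposited tables hold multimapping reads in a row of their own, at 20.8% of reads in replicate 1 and 24.1% in replicate 2. How reads came to be placed on 1 of 3 identical loci was not tested, and the counts of Gm23935 and Gm24245 are uncertain for that reason.

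**Figure D3:**
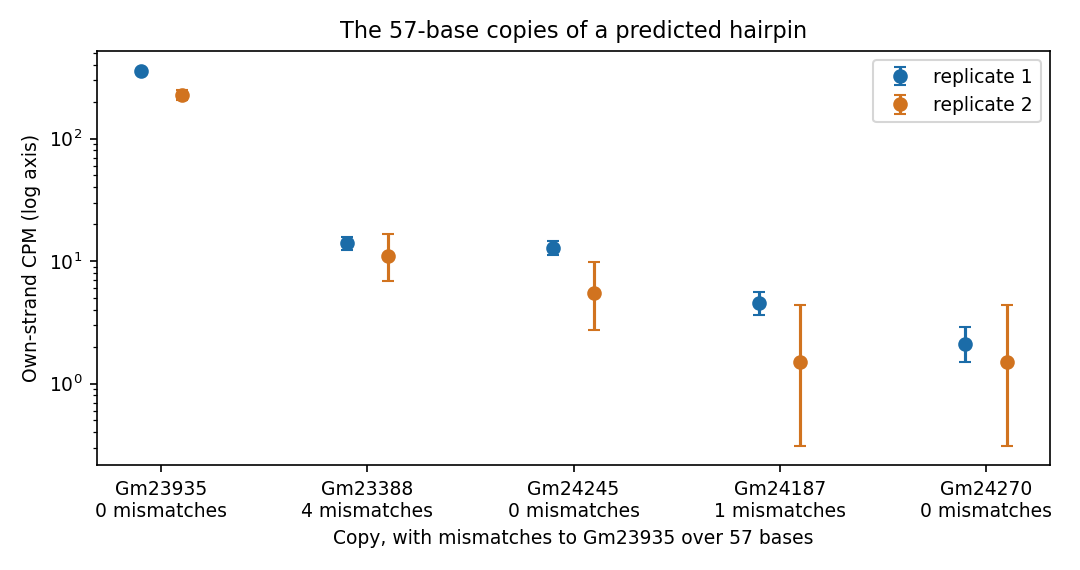
Own-strand CPM (log axis) of 5 genes with 57-base copies of the Gm23935 hairpin in replicate 1 (blue, left) and replicate 2 (orange, right), with the number of mismatches to Gm23935 under each name and exact 95% intervals as bars. Gm23935 stood at 357 and 229 CPM in replicates 1 and 2, while its identical copies Gm24245 and Gm24270 stood at 12.8 and 5.45 CPM and at 2.11 and 1.49 CPM.

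The loci were then compared with annotated genes of other classes on either strand (GENCODE M21, GRCm38). Gm26117 lies on chromosome 15 from 74563821 to 74563915, inside Adgrb1, an adhesion receptor gene known from brain. All 95 of its bases fall in annotated untranslated exon sequence of Adgrb1 on the same strand, and 0 in coding sequence. Reads counted for Gm26117 therefore cannot be told apart from pieces of Adgrb1 mRNA, whose level was not measured. Mir5126 lies on chromosome 1 from 84695839 to 84695915, and all 77 of its bases fall in untranslated exon sequence on the strand opposite to Dner, a neuronal membrane protein gene. Mir6538 lies in an intron of Rnf144a, a ubiquitin ligase gene, on the same strand. Gm23935 lies in an intron of the zinc finger gene Zc3h7a on the opposite strand.

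The other members overlap no annotated gene. Mir6240 lies 1600 bases from the protein-coding gene 4930519G04Rik on chromosome 5. Mir6236 lies on chromosome 9 from 110281287 to 110281409, 7543 bases from the lincRNA gene Gm42775. Gm24245 lies 39 bases from another predicted hairpin on the same strand, Gm25732, which had 38 counts in replicate 1 and 3 in replicate 2. No member overlaps an annotated ribosomal, small nucleolar or small nuclear RNA gene.

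Shared sequence was searched as exact runs of 20 bases (20-mers) on both strands of all 141767 annotated transcripts. No member shared a 20-mer with any of the 355 transcripts of rRNA genes, the 2 mitochondrial rRNAs, the 22 mitochondrial tRNAs or the 1507 snoRNA transcripts. Of those rRNA transcripts only 2 are longer than 200 bases, so long ribosomal RNAs were hardly covered, and repeat annotation was not used here. The transcripts searched hold no class of nuclear tRNA genes, so nuclear tRNAs were not examined. Mir6538 shared no 20-mer with any other gene. Mir6236 shared at most 4 of its 104 20-mers with any of 17 genes elsewhere, and Mir6240 at most 4 of 98 with any of 9. Gm26117 shared 72 of 76 with transcripts of Adgrb1 and at most 3 with 11 other genes. Mir5126 shared all 58 with Dner, on the opposite strand, and at most 1 with 2 other genes.

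Members were chosen on own-strand counts, and the opposite-strand column was not used. The share of own-strand counts holds the counts used in that choice, so it is a description here. The column taken as the opposite strand held 0 counts for 6 of the 7 members in replicate 1 and for all 7 in replicate 2. The exception was Gm26117, with 3 counts opposite 6377 on its own strand in replicate 1. Over the 419 detected genes 84.2% had 0 opposite-strand counts in replicate 1 and 94.3% in replicate 2, so the members were as one-sided as most genes. The own-strand share was therefore at least 99.4% in replicate 1 for Mir5126, by the lower end of its interval, and at least 98.4% for Gm24245. For Mir5126 this also means that no read was seen in the direction of Dner.

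Composition was not used in the choice of members. GC content was 91.6% for Gm26117, 83.1% for Mir5126, 75.5% for Mir6538 and 73.7% for Gm23935 and Gm24245, higher than in 97.4% or more of the 1894 counted hairpins with a sequence. Mir6236, at 56.1%, and Mir6240, at 47.0%, stood nearer the median of 51.0%. At 70% or more, a limit set after these values were seen, stood 5 of the 7 members and 3.38% of all hairpins, with 4.04% of the late-numbered, 4.51% of the predicted and 0.633% of the established. The shared sequence makes Gm23935 and Gm24245 count once in this respect. Low-complexity sequence, found with dustmasker, covered 96.8% of Gm26117, 28.6% of Mir5126, 21.4% of Mir6240, 19.5% of Mir6236 and 0% of the remaining 3, against a median of 0% over all hairpins.

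Predicted folding ran from among the most to among the least stable. The minimum free energy per base was -0.63 kcal/mol for both Gm26117 and Mir5126, and 1.95% and 2.16% of hairpins had lower values. Mir6538 stood at -0.47 kcal/mol per base, and 19.3% of hairpins had lower values. Gm23935 and Gm24245 at -0.39 and Mir6236 at -0.37 kcal/mol per base stood close to the median of -0.38. Mir6240 stood at -0.21 kcal/mol per base, and 97.7% of hairpins had lower values, that is a more stable fold. The established hairpins had a median of -0.42 kcal/mol per base. Lengths of 57 bases for Gm23935 and Gm24245 are short, with 1.58% of hairpins shorter, and Mir6236, with 123 bases, is longer than 92.3% of them.

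**Figure D4:**
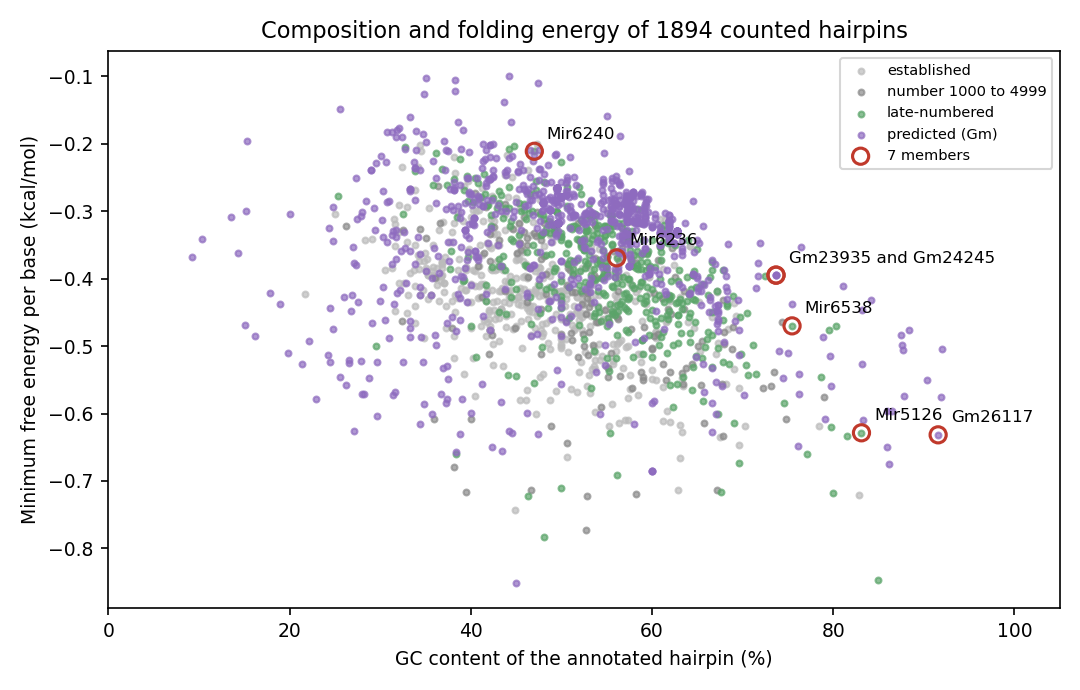
Minimum free energy per base (kcal/mol) against GC content (%) of the 1894 counted hairpins with a sequence, coloured by naming class, with the 7 members ringed. Gm26117 and Mir5126 lie at the lower right, at 91.6% and 83.1% GC and -0.63 kcal/mol per base, and Mir6240 near the top, at 47.0% GC and -0.21 kcal/mol per base.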

How the data were processed

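The tables the authors deposited hold unnormalized counts of reads for each miRNA gene. Build mm10 and GENCODE M4 were used, per the file headers; no aligner or counter is named there. A table has 3 count columns and 4 summary rows, which were left out of totals. The first count column is the sum of the others and was taken as both strands. The others were taken as own strand and opposite strand from their order, which the sums cannot check. Unmapped reads were 38.4% in replicate 1 and 27.5% in replicate 2, and reads on no gene 8.77% and 7.04%.

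Symbols and coordinates (1-based) came from GENCODE M21 on the same build, which matched 1894 of 1973 gene IDs. CPM, log2 ratios (CPM + 1) and exact intervals were computed in Python 3.11.15 with scipy 1.17.1, and folding energy with RNAfold 2.7.2. Scaling alternatives used edgeR 4.0.16 and DESeq2 1.42.0. With 1 group and 2 libraries no test between groups was made.

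The members and lists were chosen with earlier results of these data known. Named non-members were the nearest gene to each member, the detected genes of the members' numbering runs, the 4 most abundant late-numbered or predicted genes, the genes beside the 2-fold limit, 3 heart markers, markers of 7 other cell types and Mir335. Genes named for a shared sequence, seed or locus, and Mir7082, Mir133a-1, Mir8112 and Mir7654, were chosen after their values were seen.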

Additional observations from a re-analysis of the deposited data

How the results depend on the processing

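The log2 ratios of the 7 genes were recomputed under 6 alternatives, 42 values in all; 40 moved by less than counting error, 2 by more, and 0 changed sign. Those 2 came from scaling by all mapped reads, which gave -1.19 for Mir6236 and 0.50 for Gm23935 and moved the median of all detected genes by -0.13. The ratio of Gm24245 was under 2-fold in 2 of the 6, at 0.77 with a pseudocount of 5 CPM and 0.89 with scaling by all mapped reads. Leaving out a replicate leaves 1 library, whose CPM is given in the report. The 11 genes past 2-fold, of 419 (2.63%), became 28 of 783 with no filter (3.58%) and 6 of 299 at 10 CPM in both libraries (2.01%). They became 19 of 451 at a mean of 1 CPM (4.21%) and 7 of 419 with a pseudocount of 5 CPM (1.67%). The 8 late-numbered or predicted ones, of 65 (12.3%), became 5 with that pseudocount (7.69%). Scaling by all mapped reads, applied to these counts after the data were seen, gave 7 of 384 genes (1.82%). Of these 6 were higher in replicate 1 and 1 in replicate 2, against 8 and 3 in the report. It gave 5 of 44 late-numbered or predicted ones (11.4%). The number of members past 2-fold was 6 in the report, 4 at 10 CPM, 5 with that pseudocount and 5 with mapped-read scaling. At 10 CPM the filter leaves out Mir5126 and Gm24245, at 8.43 and 5.45 CPM in replicate 2, and their ratios are unchanged. No paired analysis was possible because the design has 1 group. Replicate 2 limits the precision, with 11 to 55 counts for 5 of the 7 genes.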

Other observations

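Detected hairpins with 70% GC or more, a limit chosen after the values were seen, numbered 16, of which 5 are members. Of these 16, 5 were past 2-fold higher in replicate 1 and 0 higher in replicate 2, and their median log2 ratio, replicate 1 over replicate 2, was 0.39. Past 2-fold were the members Gm26117, Mir6538, Mir5126 and Gm24245 and the near copy Gm24187. With the members left out, 11 hairpins at 70% GC or more remained. Of these 11, 1 was past 2-fold higher in replicate 1 and 0 higher in replicate 2. Their median log2 ratio was 0.14, with values from -0.02 to 1.16. Among detected hairpins under 70% GC, 403 in all, 3 were past 2-fold higher in replicate 1 and 3 higher in replicate 2, with a median of 0.0050. Since the members were picked for their ratios, the part of GC content in these ratios cannot be read from these counts and was not tested. Mir8112, at 78.6% GC, had 275 counts in replicate 1 and 27 in replicate 2, or 14.9 and 13.4 CPM, and Mir7654, at 80.0% GC, had 207 and 16 counts.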
